A study of Mus musculus with 2 samples.

Results

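The genes described here are those of 4 families of axon guidance cues and of their receptors: semaphorins with plexins and neuropilins, ephrins with Eph receptors, Slits with Robo receptors, and netrins with Dcc and Unc5 receptors. They were chosen by gene symbol from the platform annotation, from probe sets that name exactly 1 gene. The rule found 155 probe sets of 70 genes among 45101 probe sets on the array, of which 34945 name 1 gene. Expression was measured on 2 Affymetrix mouse arrays. RNA came from the cerebral cortex of 1 Sox11(-/-) embryo, whose genotype tag reads Sox -/- in place of the title's name, and of 1 Sox11(+/+) littermate, called the Sox11-null and the wild-type library below. Both embryos were at E17.5, on a C57BL/6 and 129 background, from a mating of heterozygous parents, and were genotyped from tail clips. The labels name no Cre line or cell type to which the mutation would be limited. With 1 embryo and 1 array per genotype there is no replicate error, no test was possible for any gene, and each difference describes these libraries and not the genotypes.

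Growing axons steer by cues that their growth cones read through surface receptors. Class 3 semaphorins are secreted and act through neuropilins, which bind the ligand, and plexins, which carry the signal into the cell, while most other semaphorins sit in the membrane and bind plexins directly. Ephrin-A ligands are held to the membrane by a lipid anchor and ephrin-B ligands by a transmembrane segment, and both signal at cell contacts through the Eph receptor tyrosine kinases. Slits are secreted repellents read by Robo receptors, and netrin 1 attracts axons through Dcc and repels them through Unc5 receptors. In the developing cortex these systems take part in callosal crossing, thalamocortical topography, neuronal migration and the growth of blood vessels. In a piece of tissue, fewer cells of a type and less RNA per cell cannot be told apart.

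All 6 probe sets of Sox11 itself were lower in the Sox11-null library and kept between 16.4% and 47.8% of the wild-type signal. Cortical neuron genes were present in both libraries (Neurod6 at 2723 in Sox11 null and 3019 in wild type). By their brightest probe sets, 6 of 7 had a negative log2 difference, Sox11 null minus wild type, with a median of -0.16. Other measured probe sets were positive on average for Dcx (0.425) and Bcl11b (0.23) and negative for Neurod2 (-0.85) and Stmn2 (-0.026). The median was 0.46 over 3 microglia and macrophage genes and -0.34 over 4 cartilage and bone genes. The microglia and macrophage genes were Ctss (0.68), Aif1 (0.46) and Csf1r (-0.12). Aif1, at 190 in Sox11 null and 140 in wild type, reached the array median, the level filter given below, only in Sox11 null. It could be counted only by being higher there. Both libraries also held genes of tissues that the label does not cover. Skeletal muscle Acta1 was at 23519 in Sox11 null and 23182 in wild type. The bone gene Ibsp was at 7860 in Sox11 null and 7576 in wild type, and the epidermal gene Krt10 at 3229 in Sox11 null and 10189 in wild type. The 6 epidermal genes listed summed to 20420 signal units in Sox11 null and 37963 in wild type. Of them 4 were at least 1.5-fold lower in Sox11 null (66.7%, against 3.24% of all measured genes), and Krt5 was at 0.11. The libraries also differed in sex-linked genes, with Xist at 155 in Sox11 null and 17505 in wild type and the Y-linked Uty at 617 in Sox11 null and 21.8 in wild type. This is the pattern of a male Sox11-null and a female wild-type embryo, so sex and genotype cannot be told apart here. For the beta-actin control, signal at the 3' end over signal at the 5' end, which reflects how intact the RNA was, stood at 1.16 in Sox11 null and 1.78 in wild type, and for the Gapdh control at 0.816 in Sox11 null and 0.922 in wild type. The part of these features in the differences below was not tested.

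Most guidance genes had similar signals in both libraries. Each gene was read from its brightest probe set (by mean log2 signal over the arrays), and was called measured when that signal reached the array median (177.4 for Sox11 null, 177.5 for wild type) on at least 1 array, which held for 62 of the 70 genes and for 109 of the 155 probe sets. Of the 62 measured genes, 57 differed by less than 1.5-fold, 5 were at least 1.5-fold higher in the Sox11-null library (8.06%) and 0 were at least 1.5-fold lower. Over all 12390 measured genes, 3.07% were at least 1.5-fold higher and 3.24% at least 1.5-fold lower. The members' median log2 difference, Sox11 null minus wild type, was 0.031 (quartiles -0.12 and 0.21), against 0.00 for all measured genes by centring (quartiles -0.17 and 0.17). The 5 genes were the ligands Sema6b and Sema5b and the receptors Unc5a, Unc5b and Plxna2. Sema6b and Sema5b reached the array median only in Sox11 null, where they were high, so they could enter the count only by differing that way.

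**Figure D1:**
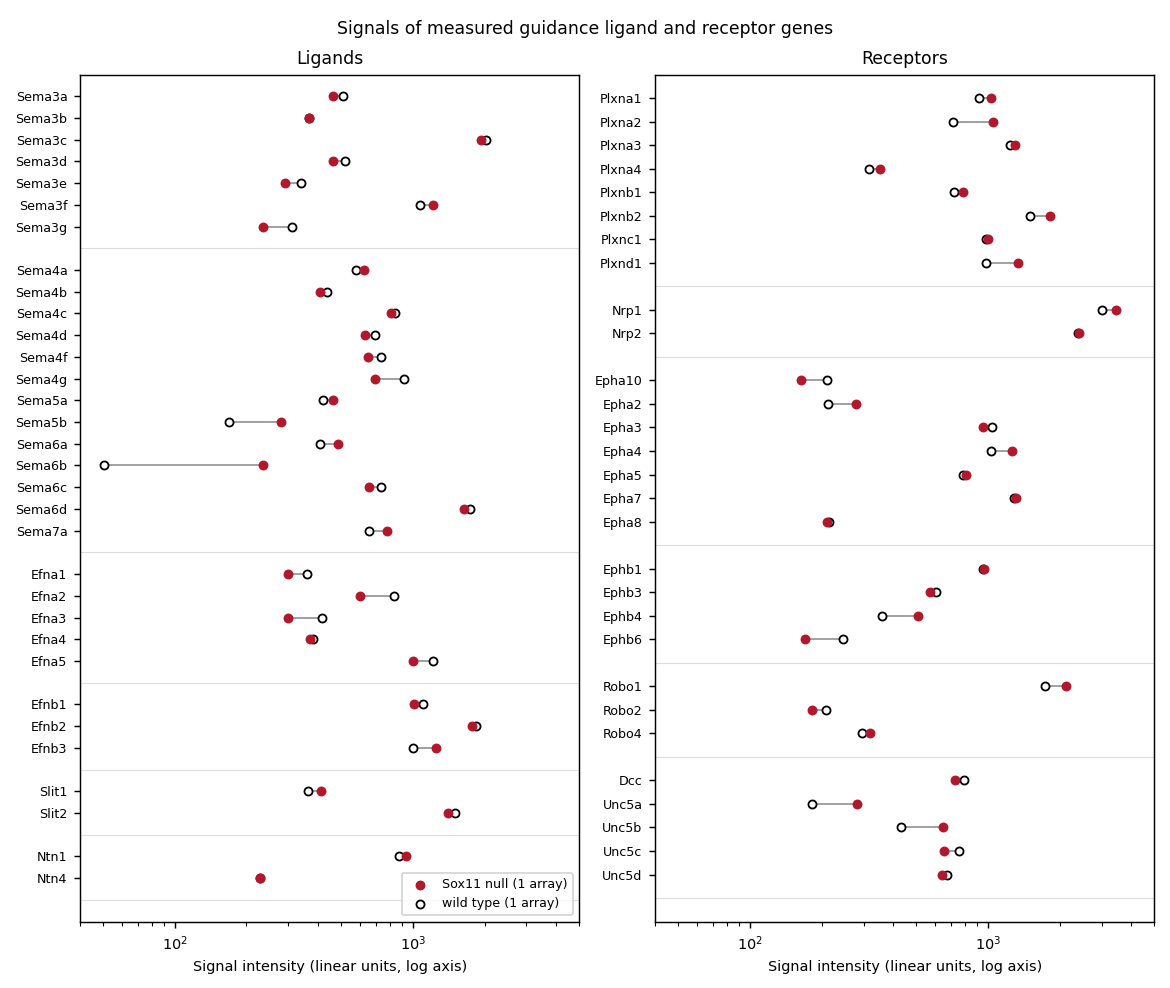
Signal intensity (linear units on a log axis) of each measured ligand gene (left) and receptor gene (right), grouped by family, with 1 filled point for the Sox11-null array and 1 open point for the wild-type array. In most genes the points lie close together, and Sema6b has the widest gap, at 235 in Sox11 null and 50.4 in wild type.

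Sema6b, a transmembrane semaphorin that binds the plexins Plxna2 and Plxna4, had the largest difference among the members. Its signal was 235 in the Sox11-null library and 50.4 in the wild-type library. The wild-type value lies below the floor at the 25th percentile of that array (52.9), so the fold is a bound, at least 4.49-fold higher in Sox11 null. The gene has 1 probe set, so no other probe set bears on the value, and raising the floor to the array median gave a log2 difference of 0.42.

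Sema5b, a membrane semaphorin with thrombospondin repeats, was 1.68-fold higher in Sox11 null (279, against 169 in wild type). Its other measured probe set gave 205 in Sox11 null and 220 in wild type, a log2 difference of -0.083. Unc5a, a netrin receptor of the repulsive class, was 1.56-fold higher with its 1 probe set, at 281 in Sox11 null and 182 in wild type. Unc5b, a netrin receptor that endothelial cells also carry, was 1.53-fold higher, at 648 in Sox11 null and 430.1 in wild type. Its other probe set gave 213 in Sox11 null and 230.3 in wild type, a log2 difference of -0.094. So for Sema5b and Unc5b the brightest probe set alone showed the difference.

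Plxna2, a receptor of class 3 and class 6 semaphorins, lay at the edge of the 1.5-fold size with a log2 difference of 0.59 (1050.2 in Sox11 null and 709 in wild type). Its 3 other measured probe sets gave 0.87, 0.37 and -0.11. It was beyond 1.5-fold in 4 of 11 alternative settings, Unc5b in 6 of 11, Sema5b in 8 of the 10 that measured it and Unc5a in 9 of 10. The members nearest to 1.5-fold on the inside were Ephb4 (0.52), Ephb6 (-0.51) and Plxnd1 (0.47), and those nearest outside it were Plxna2, Unc5b (0.61) and Unc5a (0.65).

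The spread of differences depends on signal, so each gene was also set beside the genes of its own level, in 3 equal groups of 4130 measured genes. The central 95% of log2 differences ran from -0.94 to 0.82 in the lowest level group, from -0.49 to 0.57 in the middle one and from -0.46 to 0.45 in the highest. Of the 62 members 4 lay above the range of their level group (Sema6b, as a bound set by the floor, Unc5b, Plxna2 and Plxnd1) and 0 lay below it, where by construction 2.52% of all measured genes lie above. Sema5b and Unc5a are dimmer genes and lay inside the range of the lowest group, and Plxnd1 is a bright gene, whose 1.39-fold difference lay outside the narrower range of the highest group.

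**Figure D2:**
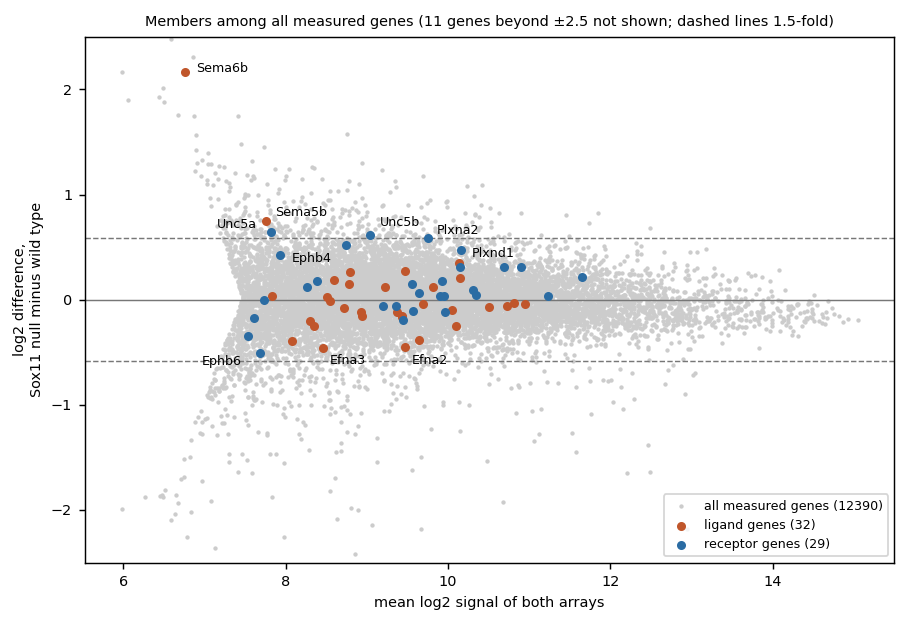
Log2 difference (Sox11 null minus wild type) against the mean log2 signal of both arrays for all 12390 measured genes (grey) and for the 32 ligand and 29 receptor genes (coloured), with dashed lines at 1.5-fold; 11 genes beyond 2.5 either way lie outside the axis. Sema6b at 2.17 stands apart from the other members, which lie between -0.51 and 0.74.

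Sequences upstream of the start site are shown for the members that were both beyond 1.5-fold and above the range of their level group (Sema6b, Unc5b and Plxna2), and for the ephrin-A genes with a Sox-type motif, because ephrin-A genes all had negative differences. Each is the 250 bases before a RefSeq start, 5′ to 3′ on the gene's strand, in the GRCm38.p6 build, and capitals mark the motifs ACAAAG and ACAATG and AACAAT on either strand, of the kind that Sox proteins bind. Sema6b has 2 annotated starts.
Sema6b, chr17:56140344-56140593, minus strand: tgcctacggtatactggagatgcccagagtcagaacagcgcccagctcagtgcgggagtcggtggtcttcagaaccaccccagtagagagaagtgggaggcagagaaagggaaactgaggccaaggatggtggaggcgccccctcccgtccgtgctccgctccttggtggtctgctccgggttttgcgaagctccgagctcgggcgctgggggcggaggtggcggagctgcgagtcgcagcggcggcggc
Sema6b, chr17:56133853-56134102, minus strand: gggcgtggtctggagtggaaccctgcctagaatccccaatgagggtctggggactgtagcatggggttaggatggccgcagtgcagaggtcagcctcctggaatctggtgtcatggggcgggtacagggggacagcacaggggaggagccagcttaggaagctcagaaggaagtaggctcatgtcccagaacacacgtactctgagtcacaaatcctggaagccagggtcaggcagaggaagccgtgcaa
Unc5b, chr10:60831582-60831831, minus strand: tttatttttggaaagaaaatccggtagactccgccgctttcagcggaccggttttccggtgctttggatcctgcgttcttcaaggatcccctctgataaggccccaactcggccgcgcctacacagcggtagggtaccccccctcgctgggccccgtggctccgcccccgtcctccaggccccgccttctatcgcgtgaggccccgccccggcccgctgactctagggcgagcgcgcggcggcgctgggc
Plxna2, chr1:194619579-194619828, plus strand: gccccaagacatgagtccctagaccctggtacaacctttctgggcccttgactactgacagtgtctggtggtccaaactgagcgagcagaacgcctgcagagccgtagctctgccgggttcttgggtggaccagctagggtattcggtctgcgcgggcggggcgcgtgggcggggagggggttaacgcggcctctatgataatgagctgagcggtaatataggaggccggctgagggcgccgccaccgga
Efna2, chr10:80179232-80179481, plus strand: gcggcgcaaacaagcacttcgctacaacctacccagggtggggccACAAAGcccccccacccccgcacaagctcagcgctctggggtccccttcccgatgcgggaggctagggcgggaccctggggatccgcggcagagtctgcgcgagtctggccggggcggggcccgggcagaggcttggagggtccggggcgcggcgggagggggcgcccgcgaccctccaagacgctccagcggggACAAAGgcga
Efna4, chr3:89338029-89338278, minus strand: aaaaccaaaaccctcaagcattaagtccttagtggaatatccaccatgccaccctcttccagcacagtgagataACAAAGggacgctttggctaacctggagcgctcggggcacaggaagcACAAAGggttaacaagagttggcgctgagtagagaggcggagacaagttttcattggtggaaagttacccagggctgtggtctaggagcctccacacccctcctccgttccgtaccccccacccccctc

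None of the 6 windows of the 5 higher genes held any of the 3 motifs, and ACAAAG stood at 2 places each in the Efna2 and Efna4 windows, on the strand shown. These 2 windows were shown because they hold the motif, and the other 5 of 7 ephrin-A windows held none of the 3 (28.6% with any motif). Over all 32851 RefSeq windows of this length 16.5% held ACAAAG, 10.7% ACAATG, 9.42% AACAAT and 29.6% at least 1 of them. Of the 68 windows found for 52 of the 62 measured members, 11 (16.2%) held at least 1. The members' windows are rich in G and C, with a median of 64.4% against 52.4% over all windows, and these motifs are rich in A and T. A match or its absence in these windows describes the letters alone.

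With each gene's brightest probe set, the ligand median lay slightly below 0 and the receptor median slightly above it. The 32 measured ligand genes had a median log2 difference of -0.049, and 12 of them (37.5%) were positive. The 29 measured receptor genes had a median of 0.092, and 20 of them (69.0%) were positive. Of the 12390 measured genes 6195 were positive, as centring sets it. The ligand median minus the receptor median was -0.14, and between -0.16 and -0.11 under the 11 other processing settings. Beyond 1.5-fold were 2 ligand genes (6.25%) and 3 receptor genes (10.3%), all higher in Sox11 null. Of all measured genes 3.07% were that much higher. In the semaphorin system the ligand median was -0.049 and the receptor median 0.18, and in the ephrin system they were -0.18 and 0.031. For Slits and Robo receptors they were 0.0605 and 0.12. The netrin system ran the other way, at 0.074 for ligands and -0.056 for receptors. Negative were 12 of 20 semaphorins and 7 of 8 ephrins, and positive were 10 of 10 plexins and neuropilins and 6 of 11 Eph receptors. When all probe sets of a gene entered as their mean, the ligand median was 0.030, 12 of 20 semaphorins were positive and 1 of 2 neuropilins was positive. With the brightest probe sets, 1 of 2 Slits, 2 of 3 Robo receptors, 2 of 2 netrins and 2 of 5 Dcc and Unc5 receptors were positive. With all probe sets averaged, 4 of 5 Dcc and Unc5 receptors were positive, and the netrin median was 0.18 and theirs 0.19.

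**Figure D3:**
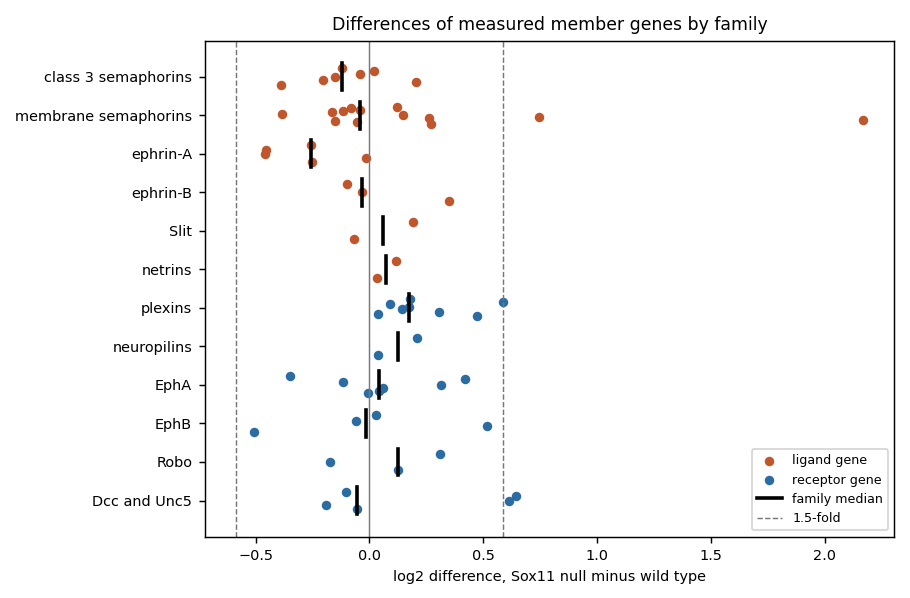
Log2 difference (Sox11 null minus wild type) of each measured gene, by family, with ligand families above receptor families, a black bar at each family median and dashed lines at 1.5-fold. All 5 ephrin-A genes lie left of 0 and all 8 plexins right of it, and the medians of the families lie between -0.25 and 0.18.

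Secreted class 3 semaphorins were all measured and all within 1.5-fold by their brightest probe sets. Sema3a, the growth cone collapsing factor that acts through Nrp1, was at 462 in Sox11 null and 510 in wild type (log2 difference -0.12). Sema3c, which guides callosal axons, was at 1935 in Sox11 null and 2020 in wild type (-0.042). Sema3e, which binds Plxnd1 without a neuropilin, was at 291 in Sox11 null and 340 in wild type (-0.21). Sema3g, known from blood vessels, had the most negative difference of the class, at 234 in Sox11 null and 311 in wild type (-0.39). Sema3f, a ligand of Nrp2, had the most positive one with its brightest probe set, at 1214 in Sox11 null and 1067 in wild type (0.21). That is a probe set of the _x_at type, which can match several transcripts, and without _s_at and _x_at probe sets Sema3f was at 1.04, beyond 1.5-fold. The family median was -0.12 with 5 of 7 genes negative, but this sign came from the brightest probe sets. With all measured probe sets of a gene averaged the median was 0.10, where that of all measured genes was 0.029. The dimmer measured probe sets of Sema3b (0.51) and Sema3e (0.38) reached the array median only in Sox11 null. They could enter that average only by being higher there. With all probe sets averaged, measured or not, the family median was 0.069 and that of all measured genes 0.030.

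Membrane semaphorins had the widest range of any family, from Sema4g at -0.38 to Sema6b at a bound of 2.17. Sema4g was at 693 in Sox11 null and 917 in wild type. Sema4d, the ligand of Plxnb1, was at 633 in Sox11 null and 696 in wild type (-0.12), and Sema4c, a ligand of Plxnb2, at 808 in Sox11 null and 842 in wild type (-0.039). Of the class 6 genes other than Sema6b, Sema6a, which like Sema6b binds Plxna2 and Plxna4, was at 483 in Sox11 null and 409 in wild type (0.26). Sema6c was at -0.15 and Sema6d, a ligand of Plxna1, at -0.056. Sema7a, a lipid-anchored semaphorin that binds Plxnc1, was at 776 in Sox11 null and 652 in wild type (0.27). The remaining genes Sema4a (0.12), Sema4b (-0.081), Sema4f (-0.16) and Sema5a (0.15) lay near 0, and 7 of the 13 genes were negative.

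All 8 measured plexins had positive differences, with a median of 0.18, and the smallest of them were close to 0. Plxnd1, the receptor of Sema3e that endothelial cells carry, was at 1340.3 in Sox11 null and 978 in wild type (0.47). Plxnb2, which takes part in the migration of neuronal progenitors, was at 1823 in Sox11 null and 1494 in wild type (0.31). Plxna1 (0.18), Plxna4 (0.17) and Plxnb1 (0.15) were 1.11 to 1.13-fold higher. The X-linked Plxna3 was at 1302 in Sox11 null and 1239 in wild type (0.092), and Plxnc1 at 996 in Sox11 null and 984 in wild type (0.039). The family median stayed positive, between 0.13 and 0.29, under the 11 alternatives, and 1 of 8 plexins turned negative with quantile normalization. The neuropilins, the ligand-binding partners of plexins, differed little. Nrp1 was at 3439 in Sox11 null and 3012 in wild type (0.21), and its 3 other measured probe sets gave -0.12, -0.15 and -0.17. Nrp2 was at 2421 in Sox11 null and 2390 in wild type (0.039).

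All 5 ephrin-A ligands were negative with their brightest probe sets and within 1.5-fold, with a median of -0.25. Efna3 was at 298 in Sox11 null and 415 in wild type (-0.46), and its other probe set, at 286 in Sox11 null and 353 in wild type, gave -0.28. Efna1 was at 298 in Sox11 null and 360.0 in wild type (-0.25), and its other probe set gave -0.26. Efna2 was at 601 in Sox11 null and 835 in wild type (-0.45), but its other probe set, at 242 in Sox11 null and 177 in wild type, gave 0.47. That probe set of Efna2 reached the array median only in Sox11 null. The other one of Efna1, at 153 in Sox11 null and 186 in wild type, reached it only in wild type. Each could count as measured only by differing that way. Efna5, which with Efna2 shapes topographic maps, was at 1002 in Sox11 null and 1210.2 in wild type (-0.25), and Efna4 at 371 in Sox11 null and 379 in wild type (-0.014). The family median lay between -0.35 and -0.23 under the 11 alternatives. When a gene's probe sets were all averaged, 4 of the 5 genes were negative, since Efna2 was then at 0.0083.

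Ephrin-B ligands differed among themselves. Efnb3, a midline cue for corticospinal axons, was at 1256 in Sox11 null and 1001 in wild type (0.35). The X-linked Efnb1 was at 1013 in Sox11 null and 1099 in wild type (-0.098). Efnb2, which marks arteries and also acts in neurons, was at 1770.1 in Sox11 null and 1838 in wild type with its brightest probe set (-0.034). The median of the 3 was -0.034, and 0.35 with a gene's probe sets averaged, where Efnb2 was beyond 1.5-fold at 0.68 (all probe sets) or 0.93 (those measured).

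The Eph receptors that read ephrins were all within 1.5-fold. Of the 7 measured EphA genes, Epha2 had the most positive difference, at 280 in Sox11 null and 212 in wild type (0.42). Epha4, which binds ephrins of both classes and acts in corticospinal guidance, was at 1259 in Sox11 null and 1026 in wild type (0.32). Epha10, whose kinase domain is inactive, had the most negative one, at 163 in Sox11 null and 210.5 in wild type (-0.35). Epha3 (-0.11), Epha5 (0.061), Epha7 (0.043) and Epha8 (-0.0069) lay near 0. Among EphB genes, Ephb4, the venous partner of Efnb2, was at 507 in Sox11 null and 360 in wild type (0.52), and Ephb6, which also has an inactive kinase, was at 171 in Sox11 null and 246 in wild type (-0.51). Ephb1 (0.031) and Ephb3 (-0.058) lay between them. Epha10 and Ephb6 reached the array median only in wild type, so they could be measured only by being lower in Sox11 null.

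Slits and Robo receptors were within 1.5-fold by their brightest probe sets. Slit1 was at 410.1 in Sox11 null and 364 in wild type (0.19), and Slit2 at 1408 in Sox11 null and 1498 in wild type (-0.070). Robo1, which with its Slit ligands acts in callosal and thalamocortical guidance, was at 2117 in Sox11 null and 1729 in wild type (0.31), and its other measured probe set gave -0.012. Robo2 was at 182 in Sox11 null and 209 in wild type (-0.17), and Robo4, the endothelial member, at 318 in Sox11 null and 296 in wild type (0.12).

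In the netrin system both measured ligands were within 1.5-fold, and 2 of 4 Unc5 receptors were beyond it. Of all measured genes 3.07% were at least 1.5-fold higher in Sox11 null. Ntn1 was at 934 in Sox11 null and 874 in wild type (0.12), and Ntn4, a laminin-like netrin, at 229 in Sox11 null and 227 in wild type (0.032). Dcc, the attractive netrin receptor, was at 726 in Sox11 null and 791 in wild type (-0.10). Unc5c was at 650.2 in Sox11 null and 753 in wild type (-0.19), and Unc5d at 641 in Sox11 null and 675 in wild type (-0.056). The other measured probe set of Unc5c gave 0.57, at 233 in Sox11 null and 159 in wild type. It reached the array median only in Sox11 null, so it could count as measured only by being higher there. Unc5a and Unc5b were the members beyond 1.5-fold. As described above, only the brightest probe set of Unc5b showed the difference, and Unc5a lay inside the range of its level group. The family median was -0.056, and 0.19 with a gene's probe sets averaged.

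Different probe sets of a gene often gave different differences. Of the 33 member genes with several measured probe sets, 10 (30.3%) had all of them on the same side of 0, against 43.2% of 5155 such genes over the array. Their pooled SD within a gene was 0.47 on the log2 scale, against 0.39 over all such genes. Counted by probe set, 11 of 109 were at least 1.5-fold higher in Sox11 null (10.1%) and 2 at least 1.5-fold lower (1.83%), where 7.26% of all measured single-gene probe sets were higher and 3.48% lower. Of the higher ones, those of Sema6b, Sema5b, Efnb2 and Dcc reached the array median only in Sox11 null. Both lower ones, of Slit2 and Sema5a, reached it only in wild type. These probe sets could enter the counts only by differing that way. The widest gap within a gene was that of Efnb2, where a dimmer probe set gave 297 in Sox11 null and 31.1 in wild type, the second value below the floor, a bound of 5.70-fold higher. The brightest Efnb2 probe sets gave -0.034 and 0.32. Sema6d had a dimmer probe set at 408 in Sox11 null and 190 in wild type (1.12), and Sema3f one at 549 in Sox11 null and 267 in wild type (1.06).

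Probe sets beyond 1.5-fold were also found in Dcc, Plxna3, Plxna2, Slit2 and Sema5a. The dimmest of 3 measured probe sets of Dcc gave 194 in Sox11 null and 111 in wild type (0.83), while its others gave -0.10 and -0.16. A probe set of Plxna3 gave 526 in Sox11 null and 312 in wild type (0.78). Plxna2 had a probe set at 477 in Sox11 null and 265 in wild type (0.87). Both probe sets that were at least 1.5-fold lower in Sox11 null belong to ligands. For Slit2 one gave 167 in Sox11 null and 320 in wild type (-0.92), and for Sema5a one gave 105 in Sox11 null and 179 in wild type (-0.75). The brightest probe sets of these 5 genes lay between -0.10 and 0.59. The part of the RNA integrity ratio given above in these gaps was not tested.

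**Figure D4:**
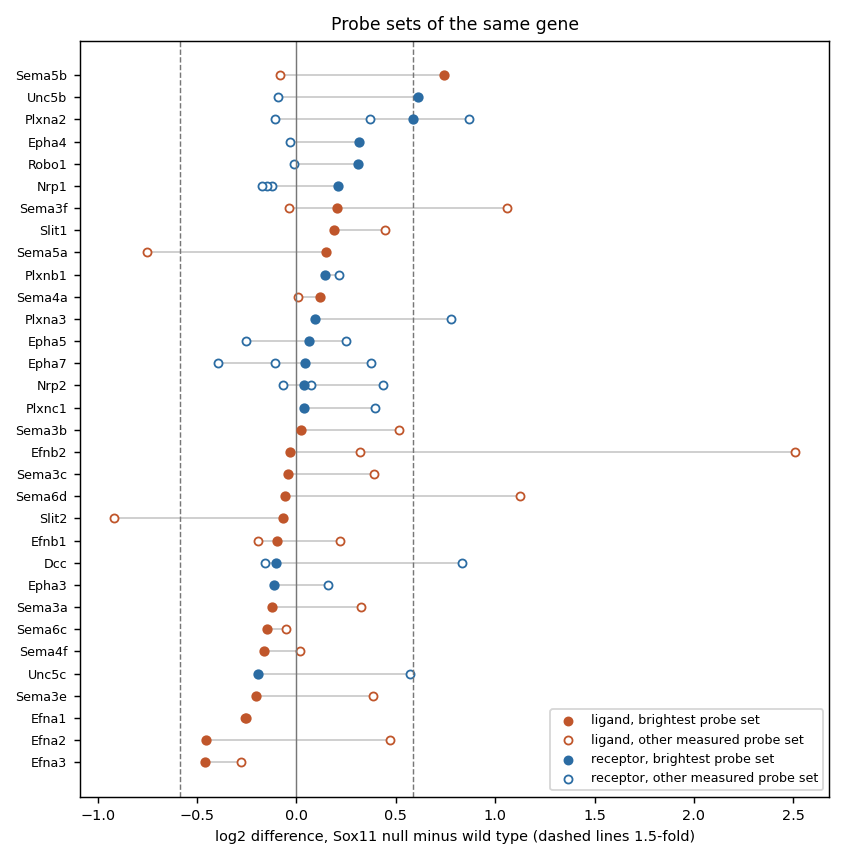
Log2 difference (Sox11 null minus wild type) of every measured probe set of the 32 ligand and receptor genes that have several, with the brightest probe set filled, the others open, and dashed lines at 1.5-fold. The brightest probe sets span -0.46 to 0.74, while the others reach from -0.92 (Slit2) to 2.51 (Efnb2).

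Genes below the level filter were Slit3, Ntn3, Robo3, Epha1, Epha6, Plxnb3, Unc5cl and Plxna4os1. Slit3 was at 170.3 in Sox11 null and 116 in wild type, and Ntn3 at 52.5 in Sox11 null and 112 in wild type. Robo3, a receptor of axons that cross the midline, was at 24.5 in Sox11 null and 65.3 in wild type. The X-linked Plxnb3 was at 157 in Sox11 null and 162 in wild type. The rule on symbols also took in 3 genes that are neither cues nor cue receptors. These are Unc50, at 2391 in Sox11 null and 1896 in wild type (0.35), Unc5cl, at 136 in Sox11 null and 104 in wild type, and the antisense transcript Plxna4os1, at 3.16 in Sox11 null and 1.62 in wild type, and they enter no count of ligands or receptors.

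Several members are also known from blood vessels. Of 7 endothelial genes, 3 were at least 1.5-fold higher in Sox11 null (42.9%, against the 3.07% of all measured genes) and 0 lower. These were Tie1 (0.68), Cdh5 (0.63) and Pecam1 (0.60), and the list median was 0.56. The 7 signals summed to 4899 in Sox11 null and 4248 in wild type, and none of the 7 was at the floor. Kdr, a receptor of vascular growth factor that is also on the list of other guidance genes described below, was at 0.56, Flt1 at 0.16, Tek at 0.011 and Cldn5 at -0.26. The members described above by vessels or endothelial cells, not a full list of those that act there, were read from their brightest probe sets. They were Unc5b (0.61), Ephb4 (0.52), Plxnd1 (0.47), Robo4 (0.12), Efnb2 (-0.034) and Sema3g (-0.39). The probe sets of Unc5b and of Efnb2 disagreed, as given above. The part of the vessel genes in these values was not tested. The measured X-linked members Efnb1 and Plxna3 had a median of -0.0030, against -0.00080 for 405 measured X-linked genes without Xist.

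Other genes of guidance signalling were mostly within 1.5-fold as well. Of a list of 61 co-receptors, adhesion molecules, cytoplasmic effectors and other cues, 57 were measured, 2 were at least 1.5-fold higher in Sox11 null (3.51%, against the 3.07% of all measured genes) and 0 were lower. Rgma, a repulsive ligand of neogenin, was at 303 in Sox11 null and 177 in wild type (0.80). It reached the array median only in Sox11 null, so it could enter the count only by being higher there. Itgb1, the beta-1 integrin that Sema7a also binds, was at 3522 in Sox11 null and 2350 in wild type (0.60), and its other probe sets averaged 0.53. The list median was 0.048. Neo1, the Rgma receptor, was at 4498 in Sox11 null and 5817 in wild type (-0.35), and the collapsin response mediator Dpysl2, which acts below Sema3a, at 14843 in Sox11 null and 16786 in wild type (-0.16).

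**Figure D5:**
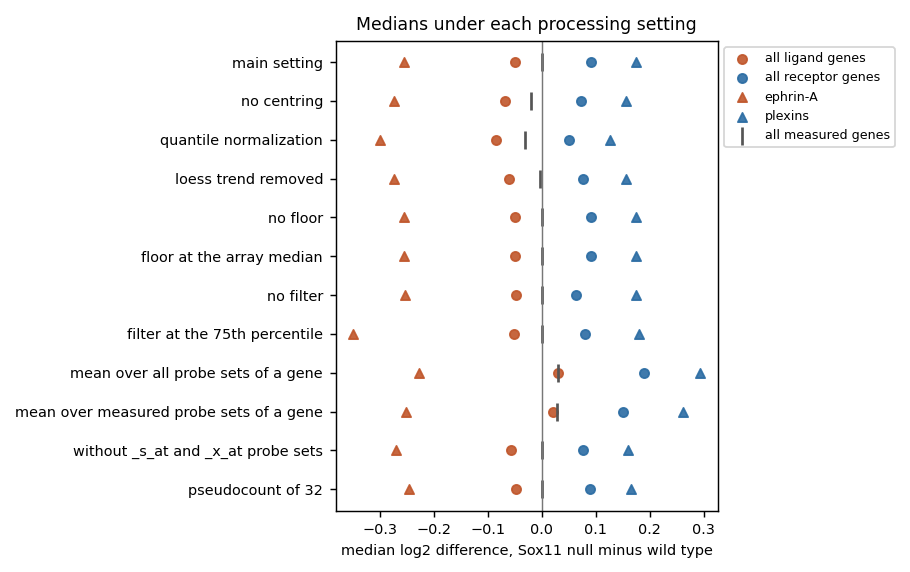
Median log2 difference (Sox11 null minus wild type) of all ligand genes, all receptor genes, ephrin-A genes, plexins and all measured genes under the main setting and each of 11 other processing settings. The receptor and plexin medians lie right of 0 and the ephrin-A median left of 0 in every setting shown, and the ligand median lies right of 0 in 2 of them, at 0.030 and 0.020, where probe sets of a gene are averaged and the median of all measured genes (vertical ticks) is at 0.030 and 0.029.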

How the data were processed

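Gene expression was measured in 1 Sox11-null and 1 wild-type cortex sample on 2 Affymetrix arrays. The deposited values are signal intensities on a linear scale, made by the authors with Affymetrix Expression Console, per the submitters' processing notes. Of the algorithm and version, no detail is given in the sources used here. Both arrays share a 2% trimmed mean of 500.002. The depth of an array is not countable, so the number of arrays limits precision.

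Without 64 control probe sets, 34945 name 1 gene, 932 several and 9160 are unnamed here, and 34741 were matched by gene number to a RefSeq table (GRCm38.p6), which changed 0 member symbols. Signals were taken to log2 (Python 3.11.15, numpy 2.4.6, pandas 2.3.3), the median difference over measured genes (-0.020) was removed, and a floor was set at each array's 25th percentile (52.5 in Sox11 null, 52.9 in wild type). Differences were counted at 1.5-fold, with no test. The steps were tested on simulated data.

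Members, roles and gene lists were chosen with earlier results of these data known. Values are given for members beyond 1.5-fold with any measured probe set, the extremes of each family, X-linked members, members nearest to 1.5-fold and members whose probe sets disagree in sign, and other values were picked after they were seen. In all 11 alternatives were tried (centring, floor, filter, probe set choice and type, and a pseudocount of 32).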

Additional observations from a re-analysis of the deposited data

How the results depend on the processing

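Each value came from 1 array per genotype, and signal near the floor and disagreement between probe sets limit it as well. No paired analysis was possible because each genotype has 1 embryo and no replicate number. The count of members at least 1.5-fold higher was 5, and it was 3 with quantile normalization, with the loess trend removed and with probe sets averaged (all, or those measured), and 2 with the filter at the 75th percentile or a pseudocount of 32. Sema6b was among them in 9 of 10 settings that measured it and Unc5a in 9 of 10, Efnb2 with either average, and Sema3f without _s_at and _x_at probe sets. The share of all measured genes that were higher also moved. It was 3.07% in the main setting, 2.48% with quantile normalization, 3.11% with the loess trend removed and 3.26% and 3.78% with the averages. With the 75th percentile filter, where fewer members were measured, it was 1.77%, and with the pseudocount 2.36%. The count of lower members was 0, and 1 (Ntn3) with no filter, where 4.375% of all genes were lower. The median of the members was 0.031, and -0.020 with quantile normalization, 0.11 with all probe sets averaged and 0.096 with the measured ones averaged. All measured genes were not centred on 0 there, with medians of -0.031 with quantile normalization and 0.030 and 0.029 with the averages, so the members lay above that median in each. With these 2 averages the ligand median was 0.030 and 0.020, and with the first the receptor median was 0.19. The class 3 semaphorin median was -0.12, and 0.085 with that stricter filter, 0.069 with all probe sets averaged and 0.10 with the measured ones. The ephrin-B median was 0.35 and that of Dcc and Unc5 receptors 0.19 with either average. Of the other pathway genes, 1 in place of 2 was higher with no centring and with the filter at the 75th percentile, where 2.85% and 1.77% of all measured genes were. Their median was -0.0058 with quantile normalization, 0.12 with measured probe sets averaged and 0.10 without _s_at and _x_at probe sets. The cause of these shifts was not tested. In the other 206 of 231 comparisons with an alternative, medians of families and lists moved by less than the probe-set spread scaled to their number of genes, and counts stayed within 1.5 times, and 336 of 349 single-gene values moved by less than that spread.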

Other observations

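Efna1, Efna3 and Efna4 are consecutive protein-coding genes on chromosome 3 in the RefSeq order. The 4 protein-coding genes on each side of them were therefore set beside the ephrins. Of the 6 neighbours that were measured, 5 had negative log2 differences, Sox11 null minus wild type, with a median of -0.10 and a range of -0.27 (Trim46) to 0.073 (Dpm3). Efna1 and Efna3 were at -0.25 and -0.46 and Efna4 at -0.014. The neighbours were chosen after the ephrin-A values had been seen, and no test was made.

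Over the array, dimmer probe sets leaned higher in Sox11 null. Among the 5155 genes with several measured probe sets, 59.7% of the 8272 probe sets that do not represent their gene were positive, with a median of 0.084, against 49.0% of the representing ones. Among the 33 members with several, 53.2% of 47 such probe sets were positive, with a median of 0.016. Of the members' representing probe sets 54.5% were positive, with a median of 0.039, so the members did not show this lean.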
